A study of Mus musculus with 6 samples.

Results

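The dystrophin complex of the embryonic mouse ventricle was followed here through 7 genes: Dmd (dystrophin), Dag1 (dystroglycan), the sarcoglycan genes Sgca, Sgcb, Sgcd and Sgce, and Sspn (sarcospan). Every probe set that the platform annotation assigned to 1 of these symbols alone was taken, which gave 17 of the 45101 probe sets on the array and 7 of the 18193 genes that the annotation names singly. The knockout arrays carried RNA from ventricles of embryos in which skNAC had been deleted by gene targeting, and the wild-type arrays carried RNA from ventricles of wild-type littermates. All embryos were of the 129SvEv strain at stage E11.5, and the labels place the death of the knockouts by E12.5. Each genotype had 3 arrays, numbered in the titles as 1, 26 and 66 for knockout and 13, 23 and 57 for wild-type. The labels do not say whether an array held 1 heart or several, or which embryos shared a litter, so p-values measure the spread between these samples, which may be technical. The comparison asked which transcripts differ in the knockout heart. Signals are MAS5 intensities on a linear scale, scaled by array, and a difference is knockout minus wild-type of log2(signal + 16).

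Dystrophin is a long rod under the muscle cell membrane that binds actin at one end and dystroglycan at the other. Dystroglycan crosses the membrane and holds laminin and related matrix proteins outside, and the sarcoglycans and sarcospan form a subcomplex beside it that steadies the link. In heart and skeletal muscle the complex protects the membrane during contraction, and its loss causes muscular dystrophy and cardiomyopathy. Alpha-sarcoglycan is made mainly in striated muscle, whereas epsilon-sarcoglycan, its close relative, is made in many tissues.

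Naca, the gene from which skNAC arises, read 9762, 8406 and 7406 in knockout 1, 26 and 66, against 8280, 8314 and 7504 in wild-type 13, 23 and 57, on 1 probe set. Its other probe set read 9047, 9034 and 8595 in knockout 1, 26 and 66, against 8385, 8566 and 8286 in wild-type 13, 23 and 57. Each gave a difference of 0.08, and the sources used here do not state if they cover the exon that skNAC alone contains. Knockout 66 stood apart from the other arrays. Over all probe sets kept by the filter on dim signals, it was the highest of the 6 arrays in 27.7% and the lowest in 24.5%, more often at both ends than any other array.

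None of the 7 genes was called different between knockout and wild-type ventricles. Of the 17 probe sets, 12 passed the filter on dim signals, a mean over the 6 arrays above 100.3, the median of all probe sets other than controls, and they covered 6 of the 7 genes. In limma, 0 of these 12 passed an adjusted p of 0.05, as did 0 of all 22518 kept probe sets (0%), and 2 of the 12 had an unadjusted p under 0.05, against 4.85% of all kept probe sets. Those 2, of Sgca and Sspn, were both lower in knockout, a direction and threshold that 2.68% of all kept probe sets met. The other 9 probe sets, of Dmd, Dag1, Sgcb and Sgce, together with the dimmer Sspn probe set, had intervals that included 0. The median difference of the 12 was -0.02, with 7 below 0 and 5 above, and that of all kept probe sets was -0.01.

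The sequence before the start of transcription is shown for the 2 genes with the lowest differences, Sgca and Sspn, and for the first Dmd start, as the gene that names the complex. Windows of 250 bases ending at the base before the annotated start were read from RefSeq (GRCm38.p6), which held windows for 6 of the 7 genes. Capitals mark matches on either strand to the E-box CANNTG (bound by basic helix-loop-helix factors), to the MCAT element CATTCC (bound by TEAD factors), and to the CArG box of serum response factor and the site of MEF2 factors.
Sgca, chr11:94976328-94976577, minus strand: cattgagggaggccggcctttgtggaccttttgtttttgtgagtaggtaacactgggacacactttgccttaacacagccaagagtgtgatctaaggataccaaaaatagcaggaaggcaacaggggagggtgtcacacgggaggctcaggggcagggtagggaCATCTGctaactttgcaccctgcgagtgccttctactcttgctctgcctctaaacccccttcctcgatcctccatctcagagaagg
Sspn, first start, chr6:145931623-145931872, plus strand: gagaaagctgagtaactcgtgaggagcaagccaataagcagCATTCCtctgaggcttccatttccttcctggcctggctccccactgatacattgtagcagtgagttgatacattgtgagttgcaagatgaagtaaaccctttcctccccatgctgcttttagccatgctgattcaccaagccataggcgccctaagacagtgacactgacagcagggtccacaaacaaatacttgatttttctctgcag
Sspn, second start, chr6:145933872-145934121, plus strand: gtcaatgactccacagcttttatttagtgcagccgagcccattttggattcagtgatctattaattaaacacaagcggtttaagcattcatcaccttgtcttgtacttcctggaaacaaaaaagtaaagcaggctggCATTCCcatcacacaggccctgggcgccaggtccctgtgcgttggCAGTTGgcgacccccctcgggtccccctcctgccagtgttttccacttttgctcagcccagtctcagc
Dmd, first start, chrX:82948620-82948869, plus strand: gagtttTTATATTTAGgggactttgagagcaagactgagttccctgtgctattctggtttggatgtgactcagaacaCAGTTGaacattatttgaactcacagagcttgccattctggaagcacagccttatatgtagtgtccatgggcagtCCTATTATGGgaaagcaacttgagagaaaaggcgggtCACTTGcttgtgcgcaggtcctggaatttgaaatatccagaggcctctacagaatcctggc
The Sgca window held 1 E-box, starting 86 bases before the start site, and the Sspn windows held 1 MCAT element each, with 1 E-box in the second. The Dmd window held 2 E-boxes, 1 CArG box and 1 MEF2 site. No match in these windows overlapped another. Among 32851 mouse windows of the same length, 66.2% held an E-box, 12.6% an MCAT element, 1.47% a CArG box and 2.92% a MEF2 site. The Sgca window had 4 CpG pairs, and the Dag1 windows had 21 and 36, where the median window had 6. A match is a run of letters and not a shown binding site.

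Sgca, alpha-sarcoglycan, was the one member gene whose arrays did not overlap between genotypes. Its single probe set, 1422654_at, read 116.6, 167.6 and 163.7 in knockout 1, 26 and 66, against 205.0, 195.9 and 272.1 in wild-type 13, 23 and 57. The highest knockout array was below the lowest wild-type array, the nearest pair being knockout 26 and wild-type 23. The means were 149.3 ± 28.4 in knockout and 224.3 ± 41.6 in wild-type (SD of 3 arrays each, as elsewhere). The difference was -0.54 ± 0.22 (SE), with a 95% interval from -1.03 to -0.05, an unadjusted p of 0.0329 in limma and an adjusted p of 0.976. Arrays of the genotypes did not overlap in 10.5% of all kept probe sets, and with knockout below in 5.56%. The difference was -0.39 without knockout 1 (unadjusted p = 0.114 in limma) and -0.40 without wild-type 57 (unadjusted p = 0.140), the arrays at the ends of its range.

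Some measures of tissue and RNA separated the genotypes as Sgca did. The 3' to 5' signal ratio of actin was 2.49 to 2.57 in knockout and 2.05 to 2.24 in wild-type, and that of Gapdh 1.28 to 1.45 in knockout and 1.12 to 1.20 in wild-type. The 5 cushion mesenchyme markers summed to 2249 to 2747 in knockout and 2827 to 3027 in wild-type, without overlap and with 0 called. They did not all go one way. Snai2, Col1a1 and Twist1 lay below 0, at -0.76, -0.51 and -0.25, and Pdgfra and Sox9 above, at 0.14 and 0.0033. The part of mesenchyme content or of RNA quality in the lower Sgca, Cav3, Agrn and Ank2 signals was not tested. All 8 cardiomyocyte markers were kept and 0 were called, with summed signals of 95761 to 106761 in knockout and 90716 to 99804 in wild-type and a median difference of 0.06. They were mixed too, with 5 above 0, among them the brightest, Myl2 and Actc1, at 0.23 and 0.15. The other 3, Tnnt2, Myh6 and Ryr2, lay below, at -0.15, -0.16 and -0.17. Fewer cells of a type and less RNA per cell cannot be told apart in whole ventricles.

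Sspn, sarcospan, a small protein with several membrane spans that joins the sarcoglycans, was measured by 2 kept probe sets. The brighter one, 1417644_at, read 750.6, 912.6 and 1112.7 in knockout 1, 26 and 66, against 1091.9, 1270.4 and 1141.9 in wild-type 13, 23 and 57. The genotypes overlapped by 1 pair, since knockout 66 lay just above wild-type 13. Its means were 925.3 ± 181 in knockout and 1168 ± 92.1 in wild-type, a difference of -0.35 ± 0.15 with a 95% interval from -0.68 to -0.01, an unadjusted p of 0.0439 in limma and an adjusted p of 0.976. The dimmer one, 1417645_at, read 63.5, 107.0 and 139.2 in knockout 1, 26 and 66, against 136.2, 127.3 and 119.7 in wild-type 13, 23 and 57. On that probe set knockout 66 was the highest of the 6 arrays and knockout 1 the lowest, and the difference was -0.32 ± 0.31 with an interval from -1.01 to 0.36. Without knockout 1 the differences of the 2 probe sets were -0.21 (unadjusted p = 0.175 in limma) and -0.06, and without knockout 66 they were -0.49 (unadjusted p = 0.00359) and -0.54.

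**Figure D1:**
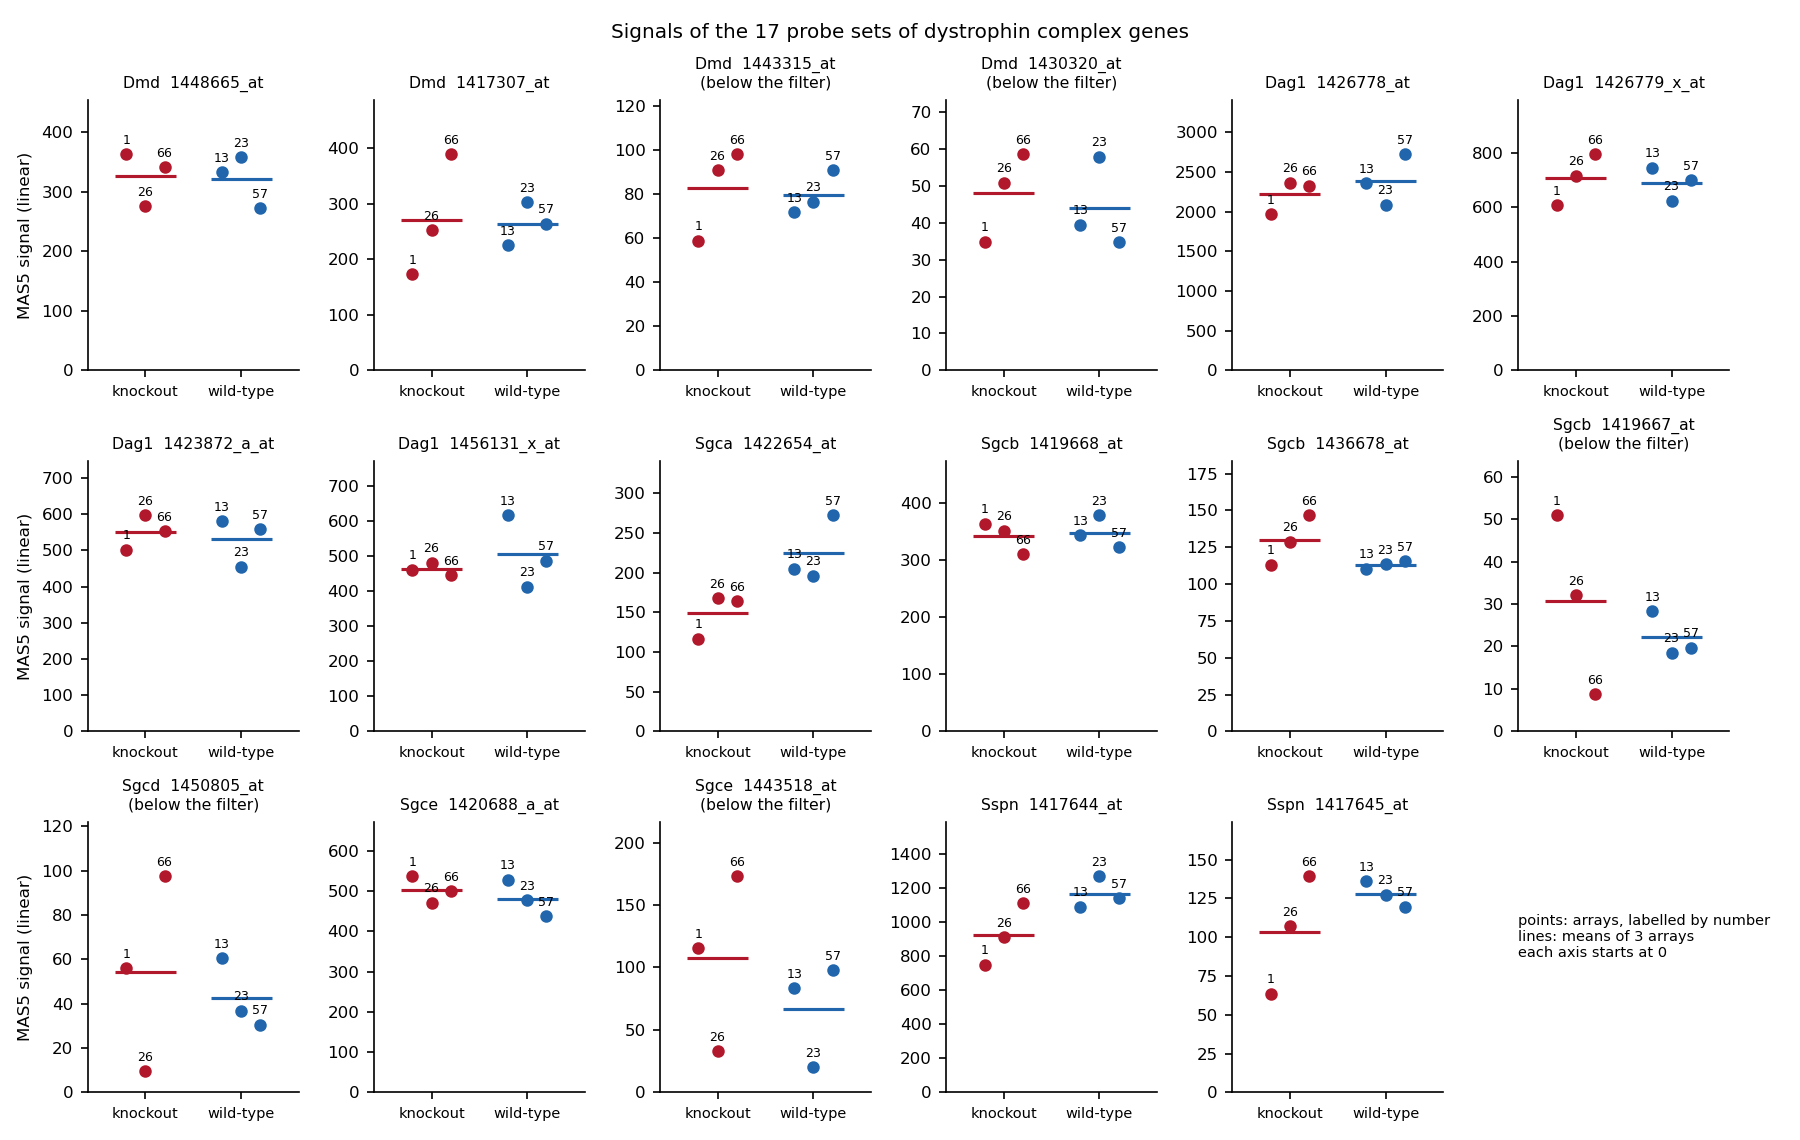
MAS5 signal (linear, each axis from 0) of the 17 probe sets in the 3 knockout arrays (red, left) and the 3 wild-type arrays (blue, right), with array numbers at the points and lines at group means. Sgca is the panel among the 12 kept probe sets in which the colours do not overlap, with knockout at 116.6 to 167.6 and wild-type at 195.9 to 272.1.

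Dmd, dystrophin, had 4 probe sets, of which 2 were kept. The probe set 1448665_at read 362.4, 275.5 and 340.4 in knockout 1, 26 and 66, against 332.4, 357.3 and 272.3 in wild-type 13, 23 and 57. The groups spanned nearly the same range, and the difference was 0.02 ± 0.17 with an interval from -0.36 to 0.41. The probe set 1417307_at read 172.6, 252.4 and 388.6 in knockout 1, 26 and 66, against 224.8, 302.1 and 263.8 in wild-type 13, 23 and 57. There the knockout arrays held both the lowest and the highest signal, with an SD of 109 in knockout and 38.7 in wild-type, and the difference was -0.02 ± 0.26 with an interval from -0.59 to 0.55. The annotation lists the same accession for both of these, and the sources used here do not state which Dmd transcripts each one reads. They differed most in knockout 1, the highest of all arrays on the first and the lowest on the second. The difference on 1417307_at was 0.25 without knockout 1 and -0.30 without knockout 66. Dmd lies on the X chromosome, and Xist, the RNA that marks an inactive X, read 6615, 6295 and 6896 in knockout 1, 26 and 66, against 6275, 7481 and 465.8 in wild-type 13, 23 and 57. Wild-type 57, low for Xist, also had the lowest signal on 1448665_at, where the difference was -0.08 without it. Eif2s3y, a gene of the Y chromosome, read 166.5, 24.5 and 213.4 in knockout 1, 26 and 66, against 2.1, 43.8 and 638.3 in wild-type 13, 23 and 57. Wild-type 57 was highest for Eif2s3y and low for Xist, whereas knockout 1 and 66 had intermediate Eif2s3y signals beside Xist as high as in the other arrays. The part of sex in these values was not tested.

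Dag1, dystroglycan, the membrane core that binds the matrix, was read by 4 kept probe sets with differences between -0.10 and 0.06. Its brightest, 1426778_at, read 1965, 2364 and 2324 in knockout 1, 26 and 66, against 2361, 2085 and 2722 in wild-type 13, 23 and 57. The lowest signal was in knockout 1 and the highest in wild-type 57, and the other 4 arrays were mixed. The difference was -0.10 ± 0.13, with an interval from -0.38 to 0.18, and it ran from -0.20 without wild-type 23 to -0.0051 without wild-type 57. It was -0.02 without knockout 1. The others, 1426779_x_at, 1423872_a_at and 1456131_x_at, gave 0.03 ± 0.14, 0.06 ± 0.15 and -0.10 ± 0.16. On 1423872_a_at and 1456131_x_at the lowest array was wild-type 23, at 454.7 and 412.7.

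The remaining sarcoglycans showed no difference beyond their spread. Sgcb, beta-sarcoglycan, an assembly core of the subcomplex, read 364.5, 352.2 and 310.7 in knockout 1, 26 and 66, against 343.5, 378.9 and 323.0 in wild-type 13, 23 and 57, on its brightest probe set 1419668_at. In order of signal the arrays of the genotypes were mixed, and the difference was -0.02 ± 0.15 with an interval from -0.36 to 0.31. A second kept Sgcb probe set, 1436678_at, averaged 129.6 ± 16.8 in knockout and 113.1 ± 2.52 in wild-type, a difference of 0.17 ± 0.25, with knockout 66 highest at 146.7. That difference was 0.08 without knockout 66 and 0.25 without knockout 1. Sgce, epsilon-sarcoglycan, an imprinted gene expressed from the paternal copy, read 537.1, 471.4 and 500.2 in knockout 1, 26 and 66, against 528.9, 478.3 and 437.8 in wild-type 13, 23 and 57, on 1420688_a_at. Its difference was 0.06 ± 0.14, with an interval from -0.25 to 0.37 and wild-type 57 the lowest array.

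Sgcd, delta-sarcoglycan, which assembles with beta-sarcoglycan, was not kept, and its signal lay below 100.3 on every array. Its probe set 1450805_at read 56.0, 9.6 and 97.5 in knockout 1, 26 and 66, against 60.6, 36.9 and 30.6 in wild-type 13, 23 and 57. The lowest and the highest signal were both knockout arrays. The other 4 probe sets below the filter belonged to genes with a brighter probe set: 1443315_at and 1430320_at of Dmd (means over the 6 arrays of 81.1 and 46.0), 1419667_at of Sgcb (26.4) and 1443518_at of Sgce (87.1). The genotypes overlapped in all 5. Fitted without the filter, they gave differences from 0.02 to 0.53, with the smallest unadjusted p at 0.395 and the smallest adjusted p at 0.970 in limma.

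**Figure D2:**
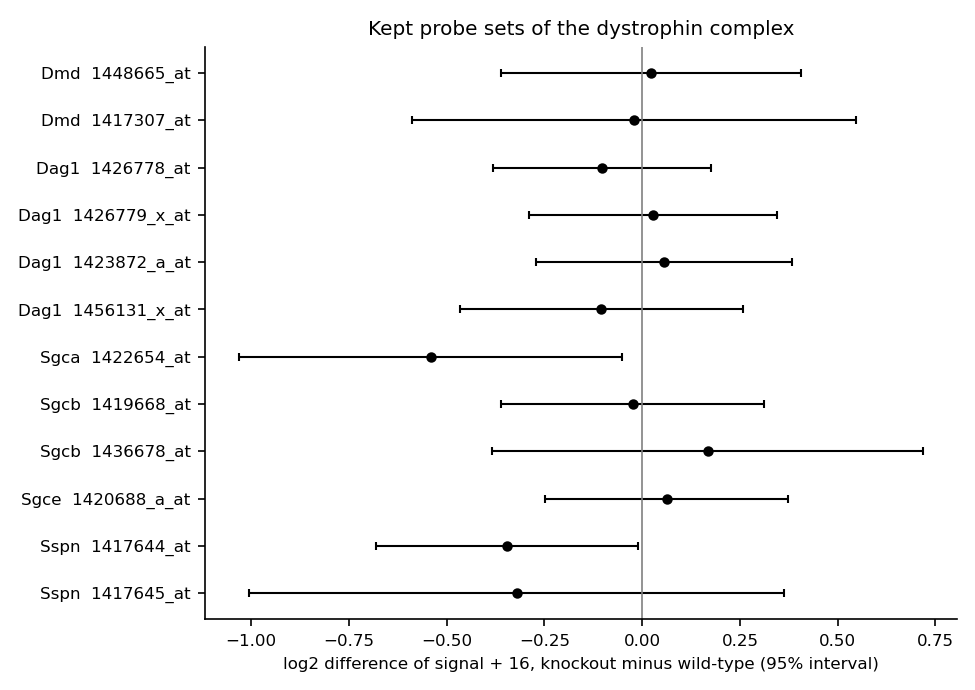
Knockout minus wild-type difference of log2(signal + 16) for the 12 kept probe sets, points with 95% intervals from limma, unadjusted for multiple tests. The intervals of Sgca (-1.03 to -0.05) and of the brighter Sspn probe set (-0.68 to -0.01) end just below 0, and the other 10 cross it.

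Across the 6 arrays the members did not move as one unit. Knockout 1 was the lowest array on 6 of the 12 kept probe sets, those of Sspn, Sgca and, in part, Dag1 and Dmd, and the highest on 2, of Dmd and Sgce. Over all kept probe sets knockout 1 was lowest in 20.1% and highest in 15.9%. Knockout 66 was the highest on 4 of the 12 and the lowest on 1. Mean deviations of the 12 from their own averages were -0.21, -0.03 and 0.10 in knockout 1, 26 and 66, against 0.08, 0.02 and 0.05 in wild-type 13, 23 and 57. Profiles were compared by the root mean square difference of centred log2 signals over the 6 arrays, with 1 brightest probe set per gene. Of the 15 pairs, Dmd and Sgce were closest, at 0.11, both nearly flat on these probe sets, and Dmd and Sgca were farthest, at 0.45. Dmd stood there for 1448665_at, with a range of 0.39 on the log2 scale. Its other kept probe set, 1417307_at, had a range of 1.10 and was not compared, so the place of Dmd depends on this choice. Sgca was at 0.22 from Sspn and 0.24 from Dag1, and at 0.38 from Sgcb and 0.42 from Sgce. These distances rest on the same 6 arrays and are descriptions without a test.

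**Figure D3:**
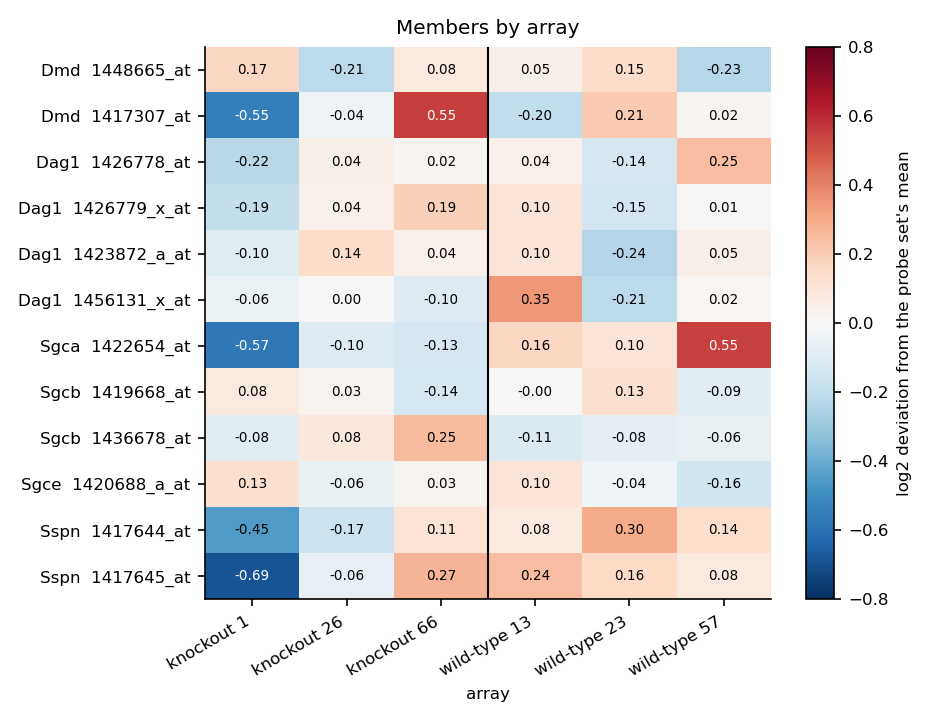
Deviation of log2(signal + 16) from each probe set's mean over the 6 arrays, for the 12 kept probe sets (rows) in knockout arrays (left of the line) and wild-type arrays (right). Knockout 1 holds the darkest blue cells, on Sspn (-0.69 and -0.45), Sgca (-0.57) and 1 Dmd probe set (-0.55).

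Sgca had the widest range of the members by brightest probe set, 1.12 on the log2 scale. Its profile over the 6 arrays was compared with those of 11647 genes. With predicted genes and clone names then left out, the 3 most similar were Gabrg3, H2bc18 and Fkbp1b. Gabrg3, a GABA receptor subunit, was at a root mean square difference of 0.05 and read 77.1, 107.2 and 106.3 in knockout 1, 26 and 66, against 139.1, 137.9 and 170.1 in wild-type 13, 23 and 57. H2bc18, a histone H2B gene, was at 0.09. Fkbp1b, which encodes a small protein that binds the ryanodine receptor, was at 0.10 and read 126.5, 143.3 and 158.0 in knockout 1, 26 and 66, against 213.2, 190.1 and 265.5 in wild-type 13, 23 and 57. These genes were picked for their likeness to Sgca on the same arrays, so their lower knockout signals follow from that choice. This likeness was not tested.

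The genes around the complex gave no call either. Of 42 listed genes, 27 had a kept probe set, 0 passed an adjusted p of 0.05 in either direction (0% of all 11648 genes did), and 4 had an unadjusted p under 0.05 in limma, against 4.73% of all genes. The median difference was -0.15, with 19 below 0 and 8 above, and over all genes it was 0.00246 with 49.5% below 0. By brightest kept probe set, arrays of the genotypes did not overlap for Ank2, Cav3 and Agrn, lower in knockout. Nor did they for Pomgnt2, Pomgnt1 and Krt19, higher in knockout. Among all kept probe sets 10.5% did not overlap, and 5.56% did so with knockout below.

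Among 6 measured cytoplasmic partners, 0 were called, 5 lay below 0 and the median was -0.23. Cav3, the muscle caveolin, which binds the tail of dystroglycan, read 180.4, 188.4 and 185.7 in knockout 1, 26 and 66, against 272.7, 357.3 and 237.1 in wild-type 13, 23 and 57. The knockout arrays lay within a few units of each other and all below the wild-type arrays, with a difference of -0.58 ± 0.19 (unadjusted p = 0.0112, adjusted p = 0.976 in limma). Without wild-type 23 that difference was -0.43 (unadjusted p = 0.0736 in limma). Nos1, the nitric oxide synthase that syntrophins hold at the membrane, gave -0.30 ± 0.22, and its second kept probe set -0.37 ± 0.26. Without knockout 26 these were -0.04 and -0.14, and without knockout 66 they were -0.53 and -0.58. Array quality weights, which gave knockout 66 the smallest weight and knockout 26 the largest, put them at -0.60 and -0.65. Utrn, utrophin, the close relative of dystrophin, gave -0.17 ± 0.13, or -0.11 without wild-type 57 and -0.09 with array quality weights.

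Of 8 measured genes for the sugar chain by which dystroglycan binds laminin, 0 were called, 3 lay above 0 and 5 below, with a median of -0.09. Pomgnt2, which adds N-acetylglucosamine to the mannose that starts the chain, read 272.1, 273.9 and 382.6 in knockout 1, 26 and 66, against 207.0, 214.2 and 226.7 in wild-type 13, 23 and 57. It was higher in all knockout arrays, by 0.47 ± 0.18 (unadjusted p = 0.0257, adjusted p = 0.976 in limma), while its second kept probe set overlapped between genotypes and gave 0.21 ± 0.21, or 0.07 without knockout 66 and 0.10 without wild-type 23. On the first probe set the difference was 0.32 without knockout 66 (unadjusted p = 0.0884 in limma). Pomgnt1, an enzyme of the same kind, gave 0.23 ± 0.14, or 0.12 without wild-type 23. Its knockout arrays, at 596.2 to 654.9, all lay above its wild-type arrays, at 451.5 to 591.8. Rxylt1, which adds xylose further along the chain, gave -0.25 ± 0.16, or -0.09 without knockout 26 and -0.46 with array quality weights. The list's median was -0.03 without knockout 1 and -0.14 without wild-type 57.

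The matrix ligands of dystroglycan had 4 measured members, 0 called, with 2 on each side of 0. Their median was -0.16, or -0.0045 without knockout 1 and -0.28 without knockout 26. Agrn, agrin, a heparan sulfate proteoglycan, read 447.3, 520.4 and 563.8 in knockout 1, 26 and 66, against 814.5, 637.8 and 625.4 in wild-type 13, 23 and 57. Each knockout array was below each wild-type array, with a difference of -0.42 ± 0.15 (unadjusted p = 0.0193, adjusted p = 0.976 in limma). Without wild-type 13 that difference was -0.30 (unadjusted p = 0.102 in limma). Lama5, a laminin alpha chain, gave -0.35 ± 0.21 and -0.31 ± 0.21 on 2 probe sets. The first was -0.20 without knockout 1, and the second was -0.18 without knockout 26. Hspg2, perlecan, gave 0.12 ± 0.18 and -0.13 ± 0.33 on 2 probe sets. Without knockout 66, which read 102.1 on the second, these were -0.04 and 0.33, so both turned.

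Of 9 measured genes that anchor the complex or neighbouring adhesions to the cytoskeleton, 0 were called, 7 lay below 0 and the median was -0.07, which turned to 0.04 without knockout 1 and was -0.14 without knockout 26. Ank2, ankyrin-B, which in mouse muscle helps keep dystrophin and dystroglycan at the membrane, had the smallest p of the 27 genes. Its brighter probe set, 1434265_s_at, read 194.2, 250.1 and 208.3 in knockout 1, 26 and 66, against 320.8, 376.6 and 358.8 in wild-type 13, 23 and 57. Its dimmer one, 1434264_at, read 87.4, 93.2 and 14.8 in knockout 1, 26 and 66, against 140.5, 102.2 and 167.9 in wild-type 13, 23 and 57. On both probe sets the highest knockout array was below the lowest wild-type array, with differences of -0.66 ± 0.17 (unadjusted p = 0.00245 in limma) and -1.10 ± 0.50 (unadjusted p = 0.0491), and an adjusted p of 0.976 for each. Without knockout 66, far below the other arrays on the dimmer one, that difference was -0.50 (unadjusted p = 0.116 in limma). Ank3, ankyrin-G, gave -0.15 ± 0.19 with 3 other probe sets from -0.09 to 0.08, and each of the 4 turned in sign when some single array was left out. Itgb1, the beta-1 integrin, gave -0.15 ± 0.14 on its brightest probe set, or -0.06 without knockout 1 and -0.29 without knockout 26. Its probe set 1426918_at read 802.5, 945.0 and 981.3 in knockout 1, 26 and 66, against 1034.6, 1156.3 and 1014.7 in wild-type 13, 23 and 57. There the knockout arrays all lay below the wild-type arrays, by -0.23 ± 0.13 (unadjusted p = 0.0976 in limma), or -0.15 without knockout 1. The dimmest, 1427771_x_at, gave -0.13 ± 0.22, or -0.0045 without wild-type 13.

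**Figure D4:**
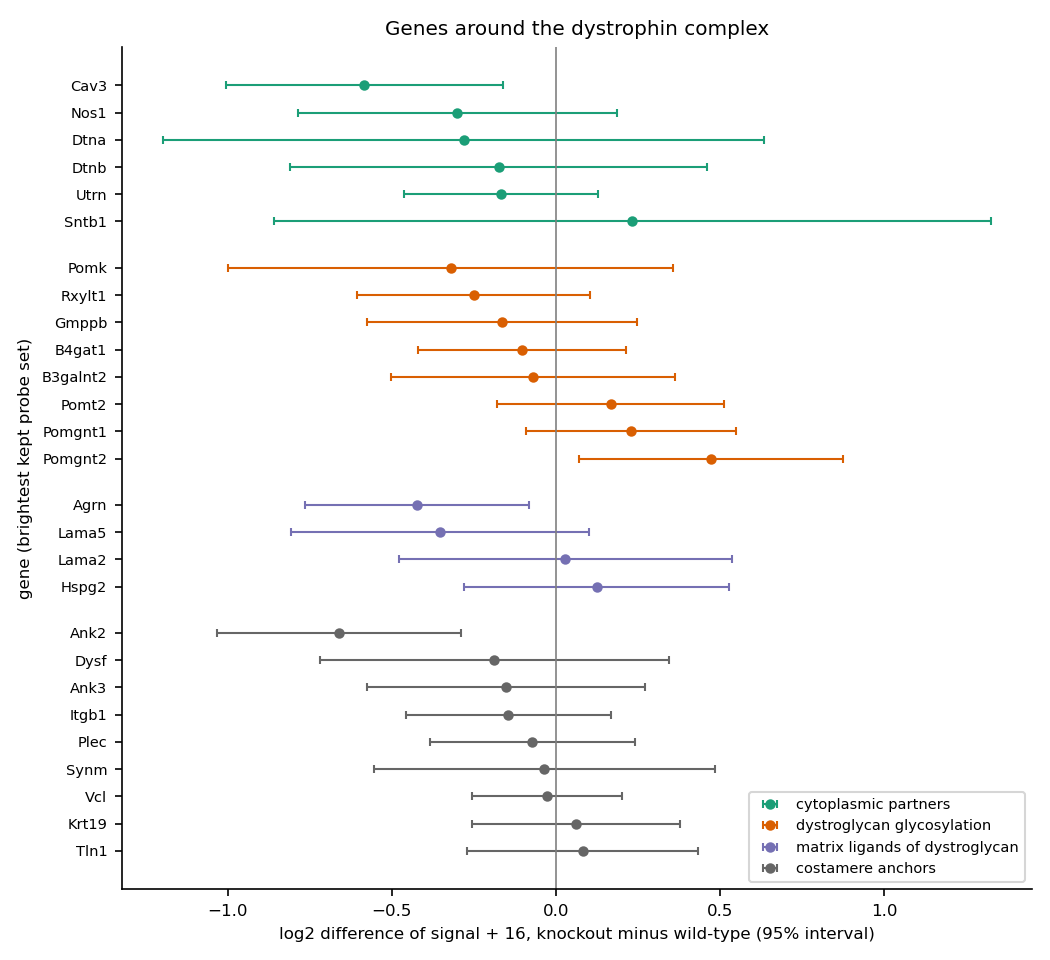
Knockout minus wild-type difference of log2(signal + 16) for the brightest kept probe set of the 27 measured related genes, with unadjusted 95% intervals from limma, coloured by list. The intervals of Ank2, Cav3 and Agrn lie below 0 and that of Pomgnt2 above it, and the other 23 include 0.

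Array medians ran from 92.0 to 113.9. Smooth muscle markers (3 of 4 kept) had summed signals of 20043 to 22365 in knockout and 17140 to 19269 in wild-type, with 0 called. Acta2 made up most of these sums, and the markers' mean deviations, -0.020, -0.016 and 0.12 in knockout 1, 26 and 66, against 0.055, -0.010 and -0.13 in wild-type 13, 23 and 57, overlapped. Skeletal muscle markers (3 of 4) summed to 2918 to 3117 in knockout and 3026 to 3134 in wild-type. Acta1 made up most of the skeletal sums, and all 3 markers lay below 0, with a median of -0.04 and 0 called. Endothelial markers (5 of 5) summed to 2959 to 3135 in knockout and 2999 to 3131 in wild-type, and epicardial markers (5 of 5) to 3100 to 3661 in knockout and 3291 to 3664 in wild-type. Blood markers (3 of 4) summed to 27341 to 41551 in knockout and 28516 to 36354 in wild-type, nerve and neural crest markers (2 of 4) to 308.4 to 391.3 in knockout and 244.3 to 389.5 in wild-type, and the 3 liver markers Afp, Alb and Ttr were all below the filter.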

How the data were processed

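Probe set intensities of 6 Affymetrix 430 2.0 arrays of mouse ventricle (500 ng of total RNA per sample, amplified and biotin-labelled per the labels' protocols) were analysed as the authors deposited them. Per the submitters' processing notes, the authors computed the intensities with the software GCOS and MAS5. The sources used here state neither versions nor scaling settings nor detection calls. Every array had a trimmed mean of 250 after removing 2% at each end, a trace of per-array scaling, which hides any change in total RNA per cell. Precision is limited by the number of arrays, with a median SE of 0.20 over probe sets.

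Of 45101 probe sets, 64 controls were left out. The platform annotation gave 1 symbol for 34945 of the others, and 34741 of those matched a mouse RefSeq gene by Entrez identifier. Log2(intensity + 16) was fitted in limma 3.58.1 (R 4.3.3; lmFit, then eBayes with trend; two-sided) over the 22518 probe sets with a mean above 100.3, with Benjamini-Hochberg adjustment over all of them and calls at 0.05. Intervals are at 95%. For the related lists a gene stood for its brightest kept probe set. The fit was tested on simulated data in which the SD followed the mean signal alone, without the added spread of real probe sets. There it called 34% of true differences of 0.5, 84% of those of 1, 78% of those of -1 and 100% of those of 2. It made 7 false calls. Members and lists were chosen with earlier results of these data known. All member probe sets are named, the 3 genes of smallest p per related list, and the 3 genes nearest in profile to the member of widest range. Predicted genes and clone names were left out of that last choice. Ank2, Nos1, Pomgnt2, Lama5, Hspg2, Ank3 and Itgb1 are also given by their other probe sets. Krt19 is named because its arrays did not overlap between genotypes. Alternatives were pseudocounts of 1 and 64, no filter and the 70th percentile, quantile or median normalization, other variance models, array weights, an adjusted p of 0.1, other gene summaries and each array left out. Figures used Matplotlib 3.10.9.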

Additional observations from a re-analysis of the deposited data

How the results depend on the processing

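The count of called member probe sets and of called related genes was 0 under every alternative run. The count over all kept probe sets was 6 with array quality weights, which weighted knockout 66 at 0.33 and knockout 26 at 2.55, and 0 to 2 when 1 array was left out, the 2 without knockout 1. Over the 34 single differences and their alternatives, 498 of 526 values kept their direction and 28 turned; the cause was not tested. With array quality weights the Dmd probe set 1448665_at gave -0.14, Hspg2 -0.038 (1418669_at) and 0.22 (1418670_s_at), and Ank3 0.022 (1452124_at), 0.13 (1425202_a_at) and 0.18 (1451628_a_at). After quantile normalization the Dmd probe set 1417307_at gave 0.020, and with the mean of its probe sets Hspg2 gave -0.0047. With 1 array left out, ranges were -0.085 to 0.13 (1448665_at) and -0.30 to 0.25 (1417307_at) for Dmd, -0.060 to 0.13 (1426779_x_at), -0.049 to 0.12 (1423872_a_at) and -0.24 to 0.044 (1456131_x_at) for Dag1, -0.075 to 0.041 for Sgcb, -0.0022 to 0.13 for Sgce, -0.040 to 0.22 (1418669_at) and -0.37 to 0.33 (1418670_s_at) for Hspg2, and -0.35 to 0.042 (1452124_at), -0.27 to 0.042 (1425202_a_at), -0.19 to 0.098 (1451628_a_at) and -0.049 to 0.20 (1452872_at) for Ank3. Sgca stayed between -0.63 and -0.39 and the brighter Sspn probe set between -0.49 and -0.21 in these fits, with adjusted p from 0.413 to 1 for Sgca and from 0.229 to 1 for Sspn over all alternatives. The unadjusted p of the brighter Sspn probe set in limma was not under 0.05 in every setting. It was 0.0589 after quantile normalization, 0.0710 with array medians centred and 0.0909 without a trend. With array quality weights it was 0.00508. With 1 array left out it was 0.00359 without knockout 66, and from 0.0553 to 0.175 without any other array. The median of the cytoplasmic partners was -0.34 without knockout 66 and -0.32 without wild-type 13. With the filter at the 70th percentile, which left out Sgca and the dimmer kept probe sets of Sspn and Sgcb, the glycosylation median was 0.17 and the ligand median -0.35, over fewer genes. No paired analysis was possible because the genotypes share no replicate number. Dim signals limit what can be said of Sgcd and of the 5 probe sets below the filter.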
